A study of Mus musculus with 12 samples.

Results

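The genes described here encode the IL-4 receptor and the proteins that carry its signal: the receptor chains Il4ra, Il2rg and Il13ra1, the Janus kinases Jak1, Jak2, Jak3 and Tyk2, the transcription factor Stat6, the adaptor Irs2 and the tyrosine phosphatase Ptpn6. They were taken as the entries whose gene symbol matched 1 of these 10 names, out of 23361 symbols in the tables, and all 10 had at least 1 FPKM in at least 1 of the 12 samples. FPKM divides the fragments assigned to a gene by transcript length and by how many fragments the library mapped, so levels can be compared between genes. The symbols were not chosen by a measured value, but earlier results of these data were known when they were chosen.

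IL-4 binds the IL-4 receptor alpha chain (Il4ra), which then pairs either with the common gamma chain (Il2rg) in the type I receptor or with the IL-13 receptor alpha 1 chain (Il13ra1) in the type II receptor, which also binds IL-13. Janus kinases held on the chains, Jak1 on Il4ra, Jak3 on the common gamma chain, and Tyk2 or Jak2 on Il13ra1, phosphorylate the receptor and then STAT6, which dimerizes and enters the nucleus. In macrophages this route switches on the alternative polarization program, and the type I receptor in addition recruits Irs2, which opens the phosphoinositide kinase arm. Ptpn6 encodes SHP-1, a phosphatase that removes phosphate from signalling proteins of this and other receptors.

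RNA-seq was carried out on mouse BMDMs, macrophages differentiated in a dish out of bone marrow precursors. The 4 groups compared held 3 samples each: BMDMs with no stimulus (control), those kept for 24 h in 20 ng/ml IL-4 (IL-4), those given LPS, a bacterial cell wall component, for 3 h in a dose of 100 ng/ml (LPS), and those that had the 24 h of IL-4 before the 3 h of LPS (IL-4+LPS). Every culture came from wild-type mice of 8 to 12 weeks on a C57BL/6 background and was differentiated for 6 days with M-CSF from L929 cell supernatant, controls included. A figure legend of the study describes 3 animals from 2 independent experiments. The labels do not tie a replicate number to an animal, so the p-values measure the spread between these samples, which may be partly technical.

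Total FPKM per sample ran from 457583 to 495025, and relative sequencing depth, read from the steps between low values, ran from 0.99 to 3.29 with control replicate 1 set to 1. Absolute depth was unknown. Replicate 1 stood apart: within groups, log2 values correlated at a mean r of 0.977 between replicates 2 and 3 and at 0.959 in pairs that held replicate 1. Values without replicate 1 are therefore given wherever they change a call for the receptor and signalling genes defined above (the members). They are not given for the other genes named, whose calls may depend on replicate 1. The macrophage markers Lyz2, Cd68, Csf1r, Emr1, Itgam and Mertk were detected in every group. With IL-4, 5 of these 6 fell, against 21.0% of all entries tested. With LPS, 4 fell, near the 57.7% of all entries that did. The summed FPKM of these markers was 19158 to 20531 in control, 7556 to 7770 after IL-4, 15380 to 16609 after LPS and 6551 to 6935 after IL-4+LPS. Lyz2 was at 16116 ± 668 in control and 4873 ± 162 after IL-4 (SD, n = 3), and the study itself reports Lyz2 as a gene that IL-4 represses. The lower marker levels stand beside the decreases of members with IL-4 given here, and their part in them was not tested. Markers of NK cells and fibroblasts were below 1 FPKM in every sample, and Cd3e stayed at or under 0.0675 FPKM. Single markers of other cells passed 1 FPKM in a group mean: Cd4 in control (10.7) and LPS (6.28), Lck in LPS (2.19) and IL-4+LPS (1.66), Cd79b in control (2.51) and IL-4+LPS (3.4), and Mcpt8 (1.03) and Zbtb46 (2.42) in IL-4+LPS. All 5 neutrophil markers in the tables were detected, and their summed FPKM was 314 to 839 in control, 213 to 397 after IL-4, 501 to 1016 after LPS and 420 to 836 after IL-4+LPS. None of these 5 was at 0 throughout, and their part in the results was not tested. As checks of treatment, Arg1 went from 0.1 to 33.5 FPKM with IL-4, and Tnf from 15.8 to 1362 FPKM with LPS. In cultures measured in bulk, fewer cells expressing a gene and less RNA per cell cannot be told apart.

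Promoter sequences are shown for the 3 genes with the largest LPS increases and for Stat6, which moved the other way. Each run is the 250 bases before the RefSeq start site, 5′ to 3′ on the gene's own strand, from assembly GRCm38.p6 (mm10), at chr7:125552021-125552270 for Il4ra, chrX:36111858-36112107 for Il13ra1, chr19:29251553-29251802 for Jak2 and chr10:127642736-127642985 for Stat6. Capitals mark matches to an NF-kB pattern (GGG, any 5 bases, CC, on either strand).
Il4ra: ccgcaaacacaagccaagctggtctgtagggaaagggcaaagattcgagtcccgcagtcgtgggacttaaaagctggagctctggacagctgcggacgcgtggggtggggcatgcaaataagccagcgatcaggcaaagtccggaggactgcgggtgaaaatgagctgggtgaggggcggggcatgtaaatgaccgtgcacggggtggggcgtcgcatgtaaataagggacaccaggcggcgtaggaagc
Il13ra1: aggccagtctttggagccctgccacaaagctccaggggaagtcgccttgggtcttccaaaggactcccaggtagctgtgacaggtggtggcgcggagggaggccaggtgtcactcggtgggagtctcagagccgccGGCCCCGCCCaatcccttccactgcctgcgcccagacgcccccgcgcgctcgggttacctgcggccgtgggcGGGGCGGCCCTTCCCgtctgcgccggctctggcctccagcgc
Jak2: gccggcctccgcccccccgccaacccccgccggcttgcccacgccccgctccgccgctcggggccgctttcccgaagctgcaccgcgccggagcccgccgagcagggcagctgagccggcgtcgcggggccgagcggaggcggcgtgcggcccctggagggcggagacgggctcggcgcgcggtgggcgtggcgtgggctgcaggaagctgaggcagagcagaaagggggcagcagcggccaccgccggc
Stat6: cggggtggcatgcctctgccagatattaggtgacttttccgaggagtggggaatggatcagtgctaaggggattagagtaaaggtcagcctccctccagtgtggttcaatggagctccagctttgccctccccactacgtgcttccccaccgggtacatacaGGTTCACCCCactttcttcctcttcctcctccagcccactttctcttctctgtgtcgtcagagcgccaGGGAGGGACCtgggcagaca
The Il13ra1 window held 3 matches to that pattern, 114, 42 and 37 bases before the start, and the last 2 overlapped. Stat6 held 2, beginning 88 and 20 bases before the start, whereas Il4ra and Jak2 held none. Among the other members, Ptpn6 held 3 matches, Jak1, Tyk2 and Irs2 held 1 each, and Il2rg and Jak3 held none. The pattern is loose: it occurred in 45.8% of 32851 mouse promoters of the same length. A STAT6 pattern (TTC, any 4 bases, GAA) was found in none of the 10 windows and in 5.85% of all promoters. The pattern with 3 bases in the middle, read by STAT proteins in general, was likewise in none of the 10 and in 7.02% of all. The Jak2 window was 80.8% G and C, against 59.6% for Il4ra. A match is only a match of letters, and sites elsewhere in these genes were not searched.

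In unstimulated BMDMs the members spanned a wide range of levels. Ptpn6 was highest at 164 ± 8.4 FPKM, above 96.4% of expressed entries, followed by Il2rg at 96.8 ± 4.43, Stat6 at 72.9 ± 6.57 and Jak1 at 53.6 ± 3.86 (SD, n = 3 each). Il4ra was at 24.5 ± 0.99, Tyk2 at 18.8 ± 0.98, Il13ra1 at 4 ± 0.092 and Irs2 at 2.26 ± 0.36 FPKM. Jak2 (8.95 ± 0.58) and Jak3 (7.89 ± 1.04) were the only neighbours in this order whose samples overlapped. After LPS the order changed: Il4ra, Il2rg, Ptpn6 and Jak2 lay together at the top, with means of 164 to 180 FPKM and overlapping samples.

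**Figure D1:**
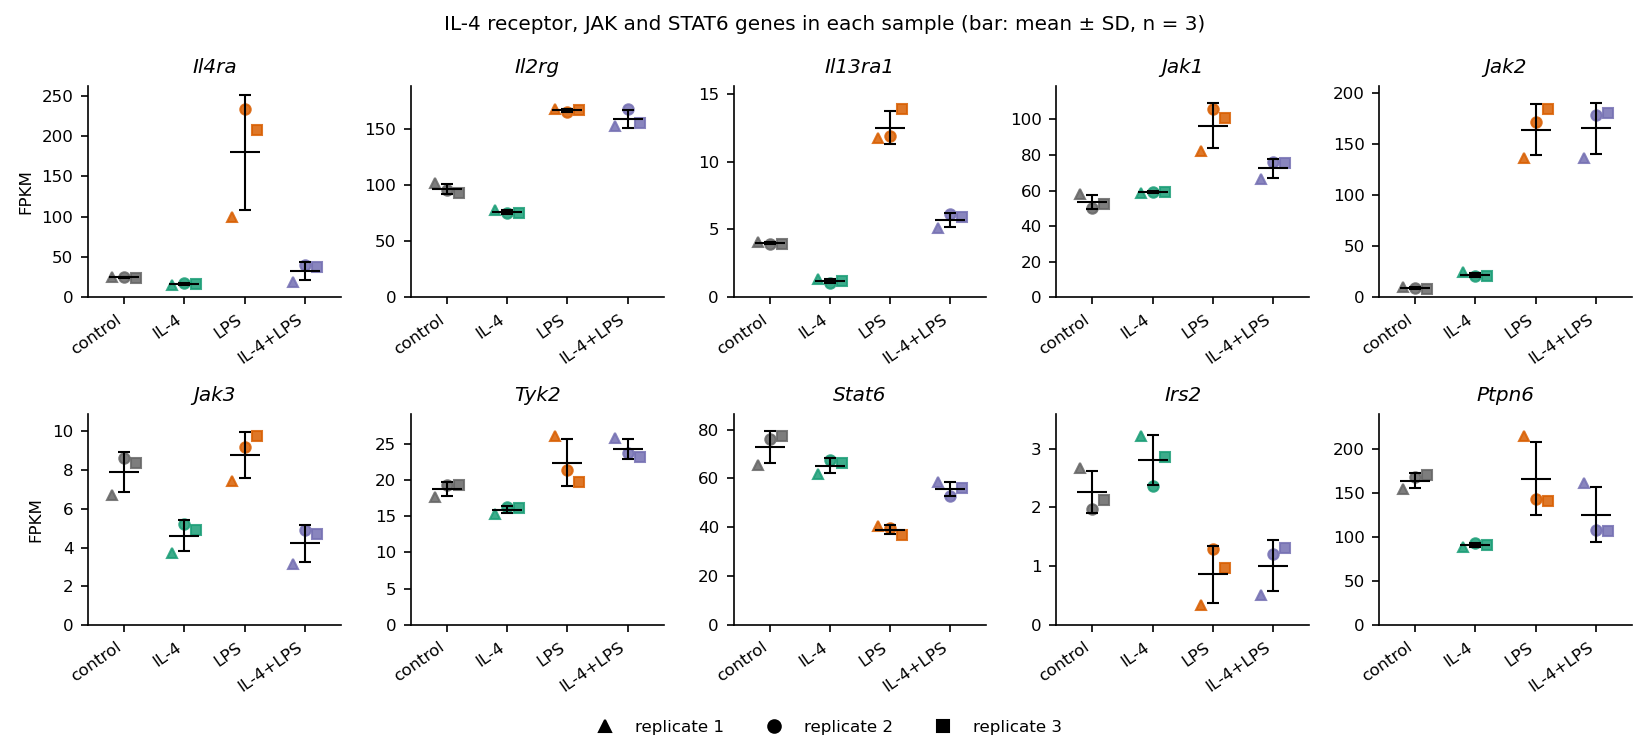
FPKM (vertical axis, linear, from 0) of each of the 10 genes in each sample, by treatment group. Symbols are replicates 1, 2 and 3, and the bars show the group mean and SD (n = 3). Il4ra was near 180 FPKM after LPS alone and near 32 after IL-4+LPS, while Jak2 was near 165 in both.

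Il4ra, the chain that binds IL-4, lies on the plus strand at chr7:125552282-125579474 (mm10). It was at 24.8, 25.2 and 23.4 FPKM in control replicates 1 to 3, at 15.7, 17.4 and 15.9 after IL-4, at 99.0, 234 and 207 after LPS, and at 19.0, 40.3 and 37.9 after IL-4+LPS. Every LPS sample was above every sample of the other groups, every IL-4 sample was below every control sample, and IL-4+LPS overlapped control. Mean FPKM was 7.36-fold higher in LPS than in control (log2 fold change 2.74 on the log2(FPKM + 1) scale used for all tests, SE 0.32, limma adjusted p = 2.108e-05). After IL-4 pretreatment the LPS level was 5.56-fold lower than with LPS alone (log2 fold change -2.42, SE 0.32, limma adjusted p = 0.0002647), which brought the mean to 1.32 times control. IL-4 alone gave a mean 1.5-fold below control, which did not pass the test over all 12 samples (log2 fold change -0.55, limma adjusted p = 0.21). It passed in the fit of the compared groups alone (adjusted p = 0.001792) and in replicates 2 and 3 alone (-0.52, adjusted p = 0.001779), but not without LPS replicate 1 (-0.55, adjusted p = 0.08373), the lowest LPS sample. An antisense transcript, Gm44876, overlaps 9.51% of its exonic bases, and the strand used in counting is not given in the sources used here.

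Il2rg, the common gamma chain shared with the receptors for IL-2, IL-7, IL-9, IL-15 and IL-21, lies on the minus strand at chrX:101264387-101268206. Its level was 102, 95.8 and 92.9 FPKM in control, 77.7, 74.9 and 75.2 after IL-4, 168, 165 and 167 after LPS, and 153, 168 and 156 after IL-4+LPS. The 2 LPS-treated groups overlapped each other and stood above control, which stood above IL-4. Il2rg fell with IL-4 by 0.34 on the log2 scale (SE 0.057, limma adjusted p = 0.000975) and rose with LPS by 0.78 (limma adjusted p = 6.666e-07). IL-4 pretreatment left no detectable difference between the LPS-treated groups (-0.07, limma adjusted p = 0.3952). This gene's values are uncertain because 42% of its 50-base words also occur in the overlapping gene Gm20489, which shares 30.5% of its exonic bases.

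Il13ra1, the chain that completes the type II receptor, lies on the plus strand at chrX:36112139-36171261. It was at 4.11, 3.95 and 3.94 FPKM in control, 1.32, 1.08 and 1.18 after IL-4, 11.8, 11.9 and 13.9 after LPS, and 5.13, 6.11 and 5.92 after IL-4+LPS. None of the 4 groups overlapped. IL-4 lowered it 3.35-fold in mean FPKM (log2 fold change -1.19, SE 0.088, limma adjusted p = 3.834e-06) and LPS raised it 3.13-fold (1.43, limma adjusted p = 1.98e-07). Both effects were present in the combined group, which was 2.19-fold below LPS alone (-1.01, limma adjusted p = 1.3e-05) and 4.8-fold above IL-4 alone (1.62, limma adjusted p = 9.984e-08). The calls for Il13ra1 held under each alternative tried, the 2-fold minimum included.

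The partner chains stood in different proportions. Il2rg exceeded Il13ra1 in FPKM by 24.2 ± 0.59 times in control, 64.1 ± 5.45 times after IL-4, 13.4 ± 1.25 times after LPS and 27.9 ± 1.81 times after IL-4+LPS (SD, n = 3). The lowest ratio after IL-4 was 58.8, and the highest in any other group was 29.8. Il4ra was at 0.253 ± 0.0098 of the Il2rg level in control and at 1.08 ± 0.44 of it after LPS, where replicate 1 gave 0.589. After IL-4+LPS this ratio was 0.203 ± 0.068, and its highest sample (0.244) was no higher than the lowest control sample. These are proportions of transcripts, and receptor protein was not measured in these tables.

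Jak1, the kinase held on Il4ra, lies on the minus strand at chr4:101151974-101265282. It was at 57.8, 50.3 and 52.6 FPKM in control, 58.5, 59.3 and 59.5 after IL-4, 82.0, 106 and 101 after LPS, and 66.3, 75.8 and 75.3 after IL-4+LPS. Neighbouring groups did not overlap, although the step from control to IL-4 was small and did not pass the test (log2 fold change 0.14, limma adjusted p = 0.2929). It passed in replicates 2 and 3 alone (0.20, adjusted p = 0.007569). Jak1 rose with LPS (0.83, SE 0.098, limma adjusted p = 2.235e-05) and was lower after IL-4+LPS than after LPS alone (-0.40, limma adjusted p = 0.0108), a call not made in the fit of those groups alone (adjusted p = 0.05832).

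Jak2, which serves the type II receptor as well as the receptors for interferon gamma and GM-CSF, lies on the plus strand at chr19:29251828-29313080 and showed the largest change of the 10 genes. Control samples were at 9.60, 8.76 and 8.48 FPKM, IL-4 samples at 24.4, 20.8 and 20.9, LPS samples at 136, 172 and 185, and IL-4+LPS samples at 136, 179 and 181. Control, IL-4 and the LPS-treated samples formed separate steps, and the 2 LPS-treated groups overlapped. Over all 12 samples, Jak2 was the only member whose increase with IL-4 passed the test (2.46-fold in mean FPKM, log2 fold change 1.21, SE 0.14, limma adjusted p = 7.725e-05). With LPS it rose 18.4-fold (4.05, limma adjusted p = 4.159e-09). Pretreatment made no detectable difference to the level reached (0.01, SE 0.14, limma adjusted p = 0.9696).

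Jak3, the kinase of the common gamma chain, lies on the plus strand at chr8:71676383-71690577. It was at 6.70, 8.61 and 8.37 FPKM in control, 3.70, 5.20 and 4.93 after IL-4, 7.46, 9.18 and 9.74 after LPS, and 3.13, 4.88 and 4.68 after IL-4+LPS. The groups given IL-4 overlapped each other and lay below both groups without it, which also overlapped each other. Jak3 fell with IL-4 by 0.67 on the log2 scale (SE 0.16, limma adjusted p = 0.009499) and was lower by 0.92 after IL-4+LPS than after LPS (limma adjusted p = 0.001868). The LPS difference was 0.14 (limma adjusted p = 0.4615), and it passed as an increase with median scaling (0.47) or quantile normalization (0.56). Part of the gene Insl3 covers 7.55% of the exonic bases of Jak3.

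Tyk2, which acts on Il13ra1 and the type I interferon receptor, lies on the minus strand at chr9:21104068-21131275. It moved least among the kinases that LPS raised: 17.6, 19.3 and 19.3 FPKM in control, 15.3, 16.2 and 16.2 after IL-4, 26.0, 21.4 and 19.8 after LPS, and 25.8, 23.7 and 23.2 after IL-4+LPS. LPS samples lay above control samples and overlapped IL-4+LPS, and the IL-4 samples were below all others. The LPS increase (0.24, SE 0.094, limma adjusted p = 0.04003) rested on few libraries: without LPS replicate 1 it was 0.13 (adjusted p = 0.1489), and it was also lost without any control replicate, IL-4 replicate 2 or 3, LPS replicate 2, or IL-4+LPS replicate 2 or 3, at values of up to 0.26. The IL-4 difference of -0.22 (limma adjusted p = 0.08753) passed without LPS replicate 1 (adjusted p = 0.02671). In replicates 2 and 3 alone the Tyk2 values were -0.24 for IL-4 (adjusted p = 0.008177), 0.087 for LPS (adjusted p = 0.1566, not passed) and 0.18 for IL-4+LPS against LPS (adjusted p = 0.02627), where all samples gave 0.12 (limma adjusted p = 0.3894). The antisense gene 1700084C06Rik overlaps 8.07% of the exonic bases of Tyk2.

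Across the Janus kinase family, LPS changed the proportions. The summed FPKM was 89.2 ± 2.4 in control, 102 ± 0.28 after IL-4, 292 ± 34.8 after LPS and 267 ± 30.2 after IL-4+LPS (SD, n = 3). Jak1 made up 60% of that sum in control and 33% after LPS, while Jak2 went from 10% to 56.2%. After IL-4 alone the Jak2 share was 21.7%, with no overlap with control, and after IL-4+LPS it was 61.9%. Jak3 held 8.88% in control and 1.57% after IL-4+LPS, the smallest share of any kinase in any group.

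**Figure D2:**
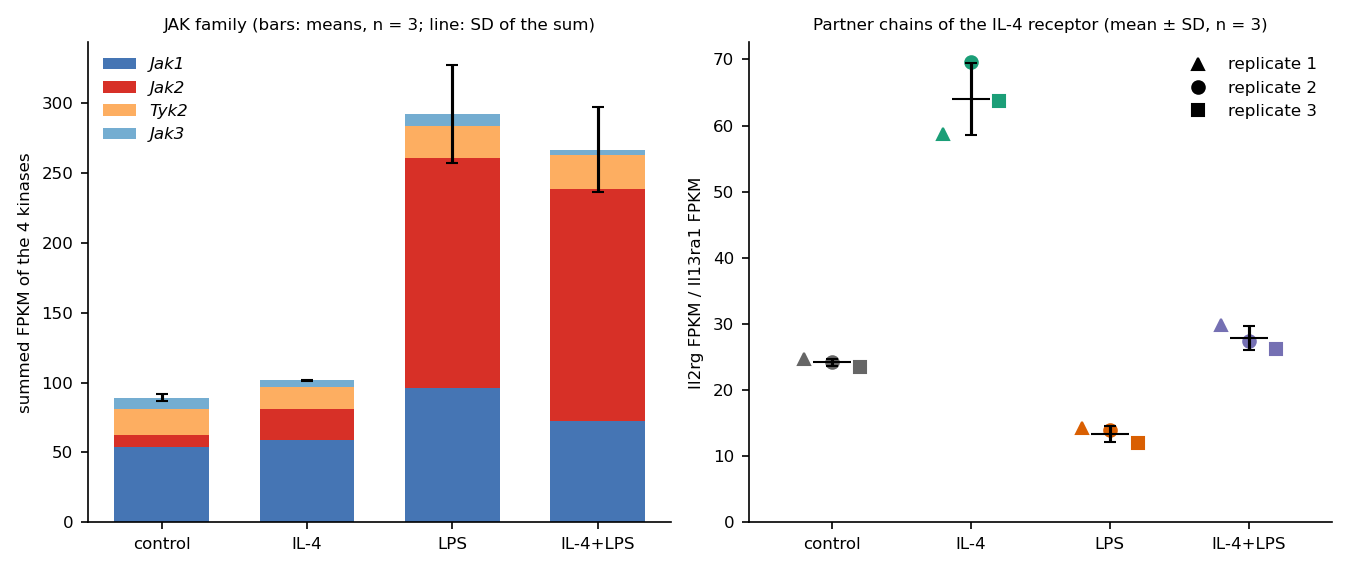
Left, summed FPKM of the 4 Janus kinases by group, as stacked group means with the SD of the sum (n = 3). Right, the ratio of Il2rg to Il13ra1 FPKM in each sample, with mean and SD. Jak2 takes up most of the increase after LPS, and the ratio of partner chains was 64.1 after IL-4 against 13.4 after LPS.

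Stat6, the transcription factor that IL-4 activates, lies on the plus strand at chr10:127642986-127660987. It was at 65.3, 76.1 and 77.2 FPKM in control, 61.7, 67.7 and 66.3 after IL-4, 40.4, 39.8 and 36.8 after LPS, and 58.3, 52.7 and 56.1 after IL-4+LPS. Control and IL-4 overlapped, IL-4+LPS lay below both, and LPS lay lowest with no overlap. Stat6 fell with LPS, 1.87-fold in mean FPKM (log2 fold change -0.88, SE 0.078, limma adjusted p = 2.658e-06), and was higher in IL-4+LPS than in LPS (0.50, limma adjusted p = 0.0007599). With IL-4 alone the difference from control was -0.15 (limma adjusted p = 0.152). It passed without control replicate 1 (-0.23, adjusted p = 0.03593), in replicates 2 and 3 alone (-0.19, adjusted p = 0.02244) and with quantile normalization (-0.27).

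Irs2, the adaptor of the phosphoinositide kinase arm, lies on the minus strand at chr8:10986964-11008430 and was the member expressed at the lowest level in 3 of the 4 groups. It was at 2.66, 1.98 and 2.13 FPKM in control, 3.21, 2.36 and 2.86 after IL-4, 0.34, 1.29 and 0.96 after LPS, and 0.51, 1.21 and 1.32 after IL-4+LPS. The groups given LPS overlapped each other and lay below the groups without it, which overlapped as well. Irs2 fell with LPS by 0.84 on the log2 scale (SE 0.21, limma adjusted p = 0.004511) and by 0.94 when LPS followed IL-4 (limma adjusted p = 0.002349). Without replicate 1 these were -0.53 and -0.67 and still passed, and with quantile normalization neither passed (-0.29 and -0.44).

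Ptpn6, encoding SHP-1, lies on the minus strand at chr6:124720718-124738709. It was at 154, 168 and 170 FPKM in control, 88.7, 92.9 and 90.5 after IL-4, 214, 143 and 141 after LPS, and 161, 107 and 107 after IL-4+LPS. The IL-4 samples were below every other sample, and the 2 LPS-treated groups were split by replicate 1, which was high in both. Ptpn6 fell with IL-4, 1.81-fold in mean FPKM (log2 fold change -0.85, SE 0.18, limma adjusted p = 0.0043). The LPS difference was -0.01 over all samples (limma adjusted p = 0.9754) and -0.25 in replicates 2 and 3 alone (adjusted p = 0.0005175). IL-4+LPS against LPS gave -0.40 (limma adjusted p = 0.1168), which passed in replicates 2 and 3 alone (-0.40, adjusted p = 0.0001551) and without IL-4+LPS replicate 1 (-0.60, adjusted p = 0.01545). Taken between samples of replicate numbers 1, 2 and 3, this difference was -0.41, -0.41 and -0.40, though it did not pass with a replicate block. An antisense gene, Gm20531, overlaps 6.96% of its exonic bases.

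Counted over the 10 members, IL-4 raised 1 (Jak2), where 16.0% of all 11191 entries tested rose, and lowered 4 (Il2rg, Il13ra1, Jak3 and Ptpn6), where 21.0% fell. LPS raised 6 (Il4ra, Il2rg, Il13ra1, Jak1, Jak2 and Tyk2) against 16.9% of all entries, and lowered Stat6 and Irs2 against 57.7%. The median log2 fold change of the members with LPS was 0.51 and that of all entries was -0.44. The split over all entries moved with the scale: 22.6% of calls were increases in the FPKM as deposited, 40% were with samples scaled to a common median, and 40.2% were with quantile normalization. Relative to the median of all entries, the LPS changes were 4.49 for Jak2, 3.18 for Il4ra, 1.88 for Il13ra1 and -0.44 for Stat6. With median scaling Stat6 still fell (-0.52) and Irs2 still fell (-0.62).

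**Figure D3:**
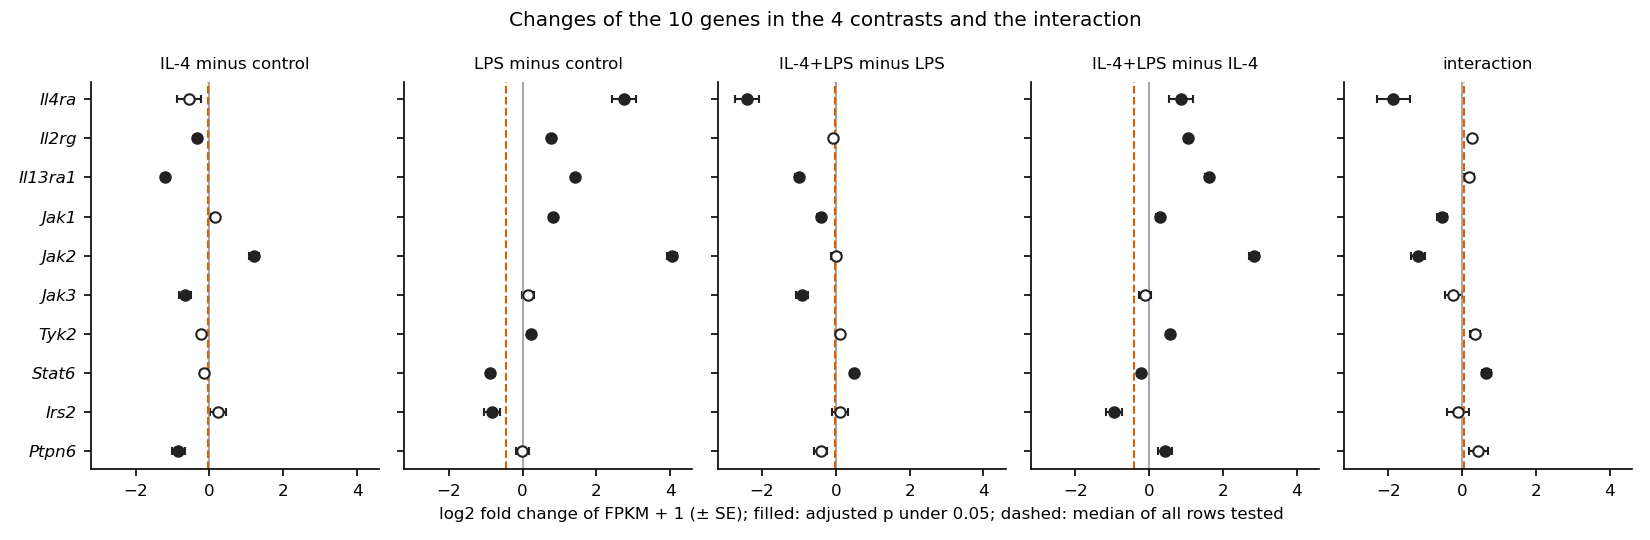
Log2 fold change of FPKM + 1 (horizontal axis, with SE) of each gene in the 4 contrasts and the interaction, where filled points have a limma adjusted p under 0.05 and the dashed line is the median of all entries tested. The members lie mostly to the right of the dashed line with LPS, led by Jak2 at 4.05 and Il4ra at 2.74.

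In cells that met LPS after IL-4, the comparison with LPS alone asks what the pretreatment altered. Stat6 was higher, against 15.0% of all entries, and 4 members were lower (Il4ra, Il13ra1, Jak1 and Jak3), against 15.8%. The comparison with IL-4 alone gave 7 higher members, against 15.0% of all entries, namely the same 6 that LPS raised in untreated cells together with Ptpn6, and 2 lower members (Stat6 and Irs2), against 57.9%. These pairs of comparisons share samples, so they are not independent. In the second one the median of all entries was -0.41, and the share of calls that were increases was 20.6% as deposited, 39.3% with median scaling and 37.1% with quantile normalization. The Stat6 decrease of 0.22 (limma adjusted p = 0.02403) turned into a difference of 0.13 with median scaling, which did not pass. It was also lost without IL-4 replicate 2 or 3 or IL-4+LPS replicate 2 or 3, at values of -0.23 to -0.19. The Ptpn6 increase of 0.43 (limma adjusted p = 0.04893) was 0.24 without IL-4+LPS replicate 1 (adjusted p = 0.1882), and it was lost as well without any control or IL-4 replicate or LPS replicate 2. The Il4ra increase of 0.87 (limma adjusted p = 0.03051) was lost without any IL-4 replicate and without IL-4+LPS replicate 2 or 3, at values of 0.69 to 0.92. That of Jak1, 0.29 (limma adjusted p = 0.02166), was lost without IL-4+LPS replicate 2 or 3, at 0.25 and 0.26. The Tyk2 increase was 0.58 (SE 0.094, limma adjusted p = 0.0002529) and those of Il2rg and Jak2 were 1.05 and 2.85.

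Whether pretreatment changed the LPS response itself was tested as an interaction, the LPS change after IL-4 minus the LPS change without it. It was negative for 3 members (Il4ra, Jak1 and Jak2), where 4.63% of all entries were, and positive for Stat6, where 4.58% were. The Il4ra response went from 2.74 to 0.87, an interaction of -1.86 (SE 0.46, limma adjusted p = 0.0296). In replicates 2 and 3 alone it was -1.95 (adjusted p = 0.0001155), whereas it missed the threshold without any single control or IL-4 replicate and without LPS replicate 2 or 3, with values of -1.89 to -1.63 and adjusted p of 0.05112 to 0.07925. A fit with no expression filter lost the Il4ra call as well (limma adjusted p = 0.08607). In FPKM, LPS added 155 ± 71.5 to Il4ra in untreated cells and 16 ± 11.1 after IL-4 (SD over 3 replicate numbers).

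For Jak2 the interaction was -1.20 (SE 0.19, limma adjusted p = 0.003411), with a higher starting level after IL-4. On the linear scale LPS added 155 ± 25.7 FPKM without IL-4 and 144 ± 27.3 after it, ranges that overlapped. The Stat6 response was -0.88 without and -0.22 after IL-4, an interaction of 0.66 (SE 0.11, limma adjusted p = 0.004429), and in FPKM Stat6 fell by 33.9 without IL-4 and fell by 9.54 when IL-4 came first. LPS added 42.8 ± 16.5 FPKM to Jak1 in untreated cells and 13.4 ± 4.86 in pretreated ones, with an interaction of -0.54 (SE 0.14, limma adjusted p = 0.03685). The Jak1 call held in replicates 2 and 3 alone (-0.65, adjusted p = 0.0006844), but it held in only 2 of the 12 fits that left out 1 library, those without control replicate 1 or LPS replicate 1, and was between -0.57 and -0.47 in the others. Median scaling (-0.55, limma adjusted p = 0.05998) and a fit with no expression filter (limma adjusted p = 0.07269) lost the Jak1 call too.

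The remaining members gave interactions that did not pass over all samples. Il2rg was nearest, at 0.27 (limma adjusted p = 0.0605), and passed without IL-4+LPS replicate 1 (0.30, adjusted p = 0.04742) and in replicates 2 and 3 alone (0.29, adjusted p = 0.0211). Tyk2 was at 0.34 (limma adjusted p = 0.1445) and passed without LPS replicate 1 (0.45, adjusted p = 0.02124) and in replicates 2 and 3 alone (0.42, adjusted p = 0.007662). Ptpn6 was at 0.44 (limma adjusted p = 0.3374), and at 0.47 in replicates 2 and 3 alone (adjusted p = 0.001193). Il13ra1 was at 0.18, Jak3 at -0.25 and Irs2 at -0.11.

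**Figure D4:**
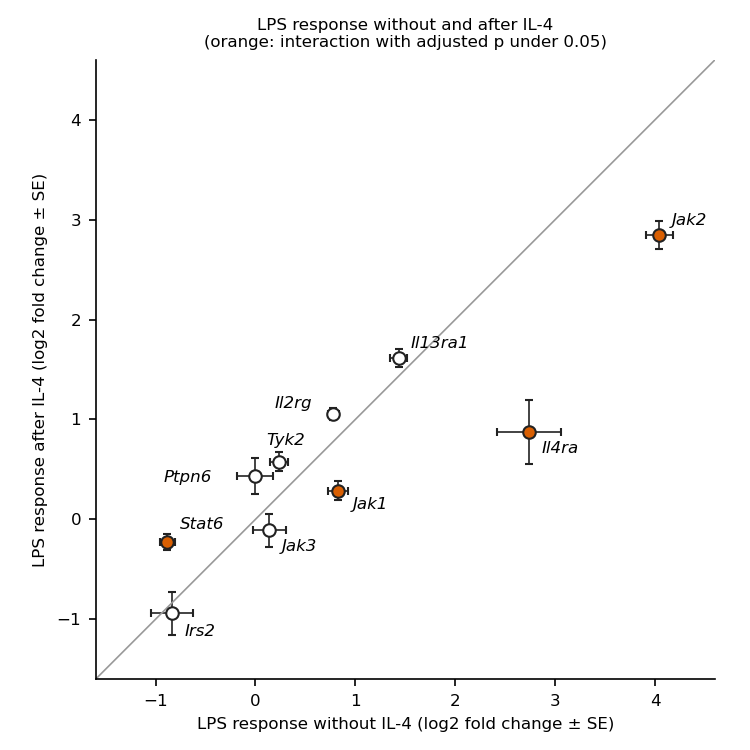
LPS response without IL-4 (horizontal axis) against LPS response after IL-4 (vertical axis), both as log2 fold change of FPKM + 1 with SE, for the 10 genes, with the line of equal response. Orange points had an interaction with adjusted p under 0.05: Il4ra, Jak1 and Jak2 lie under the line and Stat6 above it.

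Over the 12 samples, the expressed genes whose log2 values ran most closely with Il4ra were Heatr6 (Pearson r = 0.993), Ist1 (0.993), Ptpn1 (0.991), Stk40 (0.988) and Atp2b4 (0.986), out of 11191 entries searched. Ptpn1 encodes a tyrosine phosphatase that acts on Janus kinases, and its mean went from 56.3 FPKM in control to 169 after LPS and 62.6 after IL-4+LPS. The genes closest to Stat6 were Creld1 (0.975), Fam69a (0.968), Hs1bp3 (0.967), Aldh3b2 (0.963) and Sft2d2 (0.962). With 4 groups of samples, such r values mostly describe a shared order of group means, and the samples share libraries.

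The wider pathway was followed in lists of genes chosen with earlier results of these data known. Of 18 negative regulators of JAK and STAT6, IL-4 raised 8 and lowered 3, where 16.0% and 21.0% of all entries rose and fell, with a median log2 fold change of 0.22 against -0.05 for all entries. Socs1, a feedback inhibitor of Janus kinases, went from 0.829 to 31.5 FPKM with IL-4 (log2 fold change 4.17, limma adjusted p = 2.548e-06). Cish, another SOCS family member, went from 0.709 to 20.7 (3.64), and Cblb, a ubiquitin ligase, from 5.67 to 24.5 (1.94).

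LPS raised 7 and lowered 7 of these 18 regulators, against 16.9% and 57.7% of all entries, with a median of 0.04 against -0.44. Socs3, a SOCS protein induced by inflammatory signals, rose from 0.869 to 523 FPKM with LPS (8.05, SE 0.49, limma adjusted p = 1.898e-07). Usp18, a brake on interferon signalling, rose by 5.17 and Socs1 by 4.98 on the log2 scale. In IL-4+LPS, Socs1 reached 114 FPKM and Cish 146 FPKM, above their 58.5 and 15 FPKM with LPS alone. In the limma interaction 0 of the 18 had a positive value past the threshold, against 4.58% of all entries. At an unadjusted p under 0.05, 1 of the 18 did. A negative value past the threshold was found for 5, against 4.63% of all entries. Socs1 was among these 5 (-3.21), from a higher starting level after IL-4.

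**Figure D5:**
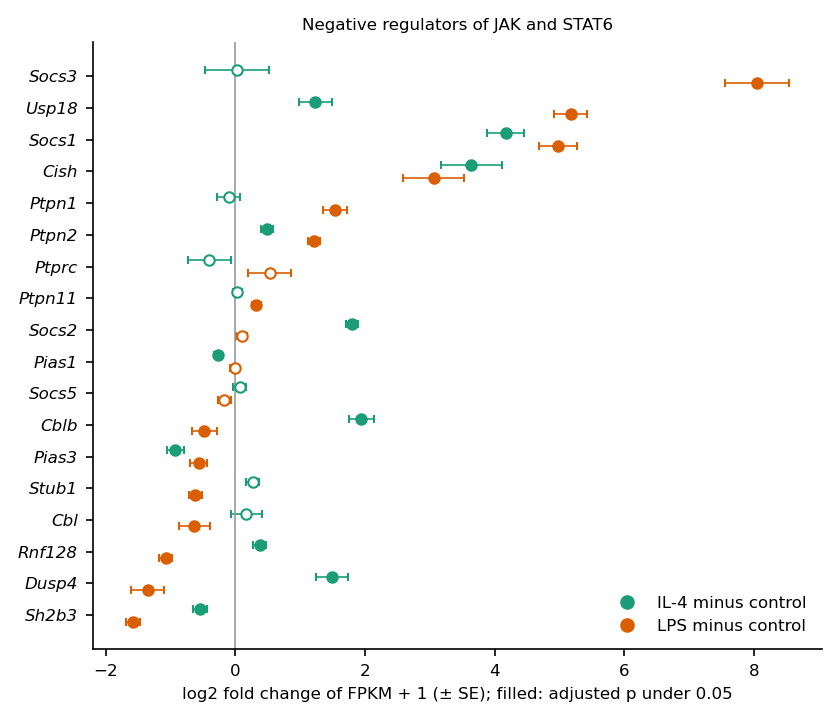
Log2 fold change of FPKM + 1 (horizontal axis, with SE) of 18 negative regulators of JAK and STAT6 with IL-4 and with LPS, sorted by the LPS change. Filled points had a limma adjusted p under 0.05; Socs3 rose by 8.05 with LPS, and Socs1 rose with IL-4 (4.17) and with LPS (4.98).

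Of 20 genes listed for phosphoinositide kinase signalling, not only those that act with Irs2, 19 were expressed. Of these 19, IL-4 raised 1 and lowered 6, against 16.0% and 21.0% of all entries. The one raised was Shc1, an adaptor, from 17.5 to 34.5 FPKM (log2 fold change 0.94, limma adjusted p = 5.987e-05). Pik3cg, a catalytic kinase subunit, fell from 15.3 to 6.39 FPKM (-1.14), and Inpp5d, the lipid phosphatase SHIP-1, from 79.3 to 43.7 (-0.85). LPS raised 3 and lowered 12 of the 19, shares near the 16.9% and 57.7% of all entries, and the median of -0.46 was near their -0.44. Inpp5d fell to 8.73 FPKM with LPS (-3.07) and Tsc1, a brake on mTOR, from 6.68 to 2.54 (-1.12), while Pik3r5, a regulatory subunit, rose from 56.2 to 307 FPKM (2.42).

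Among 11 listed ligands, decoy receptors and other receptors, 5 reached 1 FPKM: Il7r, Il15ra, Il21r, Tslp and Crlf2. Il7r, Il15ra and Il21r belong to receptors with the shared chain, whereas Tslp and Crlf2 do not. With IL-4, 0 of the 5 passed limma's test (0 at an unadjusted p under 0.05). Over all entries, 16.0% rose and 21.0% fell with IL-4. Of these 5, LPS raised 1 and lowered 2, against 16.9% and 57.7% of all entries. It raised Il15ra, the IL-15 receptor alpha chain, from 1.54 to 26.1 FPKM (3.37, limma adjusted p = 1.496e-07). It lowered Il7r, the IL-7 receptor, from 106 to 27 (-1.93) and Il21r, the IL-21 receptor, from 4.81 to 1.67 (-1.24). The genes for the ligands IL-4 and IL-13 themselves did not reach 1 FPKM in any sample.

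Of 11 STAT6 partners and coactivators, IL-4 raised 2 and lowered 3, near the 16.0% and 21.0% of all entries, with a median of 0.08. LPS raised 4 and lowered 6, against 16.9% and 57.7%, with a median of -0.30. Irf4, a transcription factor of alternative polarization, rose from 1.36 to 19.9 FPKM with IL-4 (3.15, limma adjusted p = 5.261e-09), and Pparg, a nuclear receptor, from 42.5 to 95.9 (1.15). Parp14, a STAT6 coactivator, fell with IL-4 from 28.2 to 15.1 FPKM (-0.87) and rose with LPS to 337 (3.56). LPS lowered Pparg to 10.6 FPKM (-1.93) and raised Cebpb from 37.4 to 114 (1.69).

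Known targets of IL-4 and STAT6 changed in the groups given IL-4 with and without LPS: of 20 listed, 19 were expressed, 18 rose with IL-4 (median 2.95, against 16.0% of all entries) and 15 were higher in IL-4+LPS than in LPS (median 2.98, against 15.0%). As the list holds genes known to respond to IL-4, these counts serve only as a check of treatment. The list shares Socs1 and Cish with the negative regulators. Retnla, a secreted marker of alternative polarization, was at 11.4 FPKM in control, 12170 after IL-4 and 10480 after IL-4+LPS. Chi3l3 was at 29.8, 840 and 655 FPKM in the same groups. Of these targets LPS alone raised 7 and lowered 8, against 16.9% and 57.7% of all entries, the former with Il4i1 (6.04), Socs1 (4.98) and Ccl22 (3.61). All 8 genes of a list of known LPS response genes rose with LPS, against 16.9% of all entries, which serves only as a check of treatment. Irg1 (9.27), Cxcl10 (9.13) and Il1b (8.20) rose the most. With IL-4, 2 of the 8, Nfkbia (-1.04) and Tnf (-0.92), fell, a share near the 21.0% of all entries that did.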

How the data were processed

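Poly-A RNA libraries from 12 BMDM samples were sequenced by the authors as paired reads of 100 bases, mapped to mm10 with TopHat2 2.0.7 and quantified with Cufflinks 2.0.2 (tools and versions per the submitters' processing notes). The authors deposited 1 table of FPKM per sample, with replicates kept apart and no further scaling between samples. The annotation and strand setting are not given in the sources used here. The labels give LPS in ng/ml, while the methods give the same figure in nM. An FPKM is relative to the sample's own fragments, so a change in RNA composition shifts the other genes.

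Tables were joined on symbol, locus and start site (23847 entries). Entries with at least 1 FPKM in at least 1 sample (11191) were transformed to log2(FPKM + 1), which understates changes of low genes, and fitted as group means over all 12 samples with limma 3.58.1 in R 4.3.3 (eBayes with intensity trend, Benjamini-Hochberg adjustment, threshold 0.05, two-sided). The fit was tested on simulated data. Gene positions are those in the files (1-based), overlaps come from GENCODE vM21, and promoters from RefSeq, which held all 10 genes. Alternatives changed the pseudocount, filter, scaling, trend, samples, block, test and fold minimum. The members and lists were chosen with earlier results of these data known. Genes named from lists were the up to 3 with the largest called change in IL-4 minus control and in LPS minus control with 1 sign in all replicate numbers, and Arg1, Retnla, Tnf and Il1b as checks of treatment. For Il4ra and Stat6 the 5 closest genes by Pearson r were named.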

Additional observations from a re-analysis of the deposited data

Results flagged for a closer look

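Among the 10 genes, 4 responded to LPS differently after IL-4 than without it, by limma's interaction term (log2 scale, LPS change after IL-4 minus LPS change without it). The values were -1.86 for Il4ra, -1.20 for Jak2, -0.54 for Jak1 and 0.66 for Stat6. Over all entries 4.63% had a negative and 4.58% a positive interaction past the threshold. Leaving out 1 library lost the Il4ra call in 8 of 12 fits and the Jak1 call in 10 of 12. Dropping the expression filter lost both calls, and median scaling lost that of Jak1. The Jak2 difference was one of log2 change: in FPKM, LPS added 155 without IL-4 and 144 after it. Groups of 3 were not tested for single outlying samples.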

How the results depend on the processing

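The FPKM tables carry no fragment counts, so no counting interval could be formed and depth limits low genes such as Irs2 and Il13ra1 by an unknown amount. Of 1140 values of members under alternatives, 1030 kept their side of the threshold, 84 lost a call and 25 gained one. Of the 1030, 15 changed sign while past the threshold in neither fit. The called value that reversed was Stat6 in IL-4+LPS minus IL-4, which went from -0.22 to 0.13 with median scaling. A 2-fold minimum, which removes smaller changes by construction, left 2 of 5 members called in IL-4 minus control, 3 of 8 in LPS minus control, 2 of 5 in IL-4+LPS minus LPS, 3 of 9 in IL-4+LPS minus IL-4 and 2 of 4 in the interaction. Replicates 2 and 3 alone gave 9 members in IL-4 minus control and 7 in the interaction. The per-gene Tukey test gave 5 in IL-4+LPS minus IL-4, and the cause was not tested. Leaving out 1 library at a time gave 5 to 6, 7 to 8, 5 to 6, 6 to 9 and 2 to 5 members in these comparisons, in the same order. The interaction count fell to 2 without control replicate 2 or 3, any IL-4 replicate, or LPS replicate 2 or 3. Where this left a group with 2 samples, its spread was pooled with the others. Of 234 list counts, 220 stayed within 1.5 times, 8 were smaller and 6 larger.

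Deviations of samples with the same replicate number correlated at a mean r of 0.124 over 18 pairs (0.0024 to 0.386, 11 over 0.1), and 9 of 12 correlated best with their own number. The labels do not say what a number marks. With a replicate block the calls over all entries went from 4141 to 5585 for IL-4 minus control, 8349 to 9182 for LPS minus control, 3453 to 4954 for IL-4+LPS minus LPS, 8156 to 9133 for IL-4+LPS minus IL-4, and 1030 to 2240 for the interaction. Among members the replicate block gave 5, 8, 5, 9 and 5 calls in the same order, and Il2rg gained an interaction call (0.27, limma adjusted p = 0.02573).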
